A study of Mus musculus with 20 samples.

Results

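The RNAs described here are short fragments of H/ACA small nucleolar RNAs (Snora genes) and small Cajal body RNAs (Scarna genes) in mouse bone marrow dendritic cells and macrophages. A sequenced tag of 18 to 45 nt was counted when it lay wholly and without mismatch in the sense strand of a GENCODE transcript of such a gene and in no miRNA hairpin, and a gene was kept when it had at least 20 reads over all libraries. Of 49 annotated genes, 48 had any read and 43 were kept, 35 Snora and 8 Scarna genes. They held 120913 of 299949470 reads, in 1953 distinct tags. At the minimum of 20 reads, Scarna3a was kept with 33 reads and Snora33 and Snora47 with 35 each, while Snora23 with 17 and Snora19 with 15 fell below it. The study holds 20 small RNA libraries: 2 cell types were crossed with 2 genotypes and 5 stimulus states, and no condition was repeated. GM-CSF was used to grow the dendritic cells and M-CSF to grow the macrophages, both out of marrow of mice of 8 to 12 weeks that were either C57BL/6 wild type or carried the miR-155 knockout allele of the strain B6.Cg-Mir155tm1.1Rsky/J. Each of these 4 cultures was left without stimulus or received LPS, a bacterial membrane component, or a lipoprotein preparation labelled oxLDL, eLDL or LDL. The protocol gives 200 ng/ml LPS overnight at day 8 to 9 for the dendritic cells, and for the other treatments no dose or time was found in the labels. Nothing states that the libraries came from separate mice or cultures, so every p-value below measures the spread between these libraries, which may be technical.

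H/ACA RNAs fold into a pair of hairpins joined by a hinge that carries the H box (ANANNA) and followed by a tail with the trinucleotide ACA. In complex with dyskerin, Nop10, Nhp2 and Gar1 they guide the conversion of uridine to pseudouridine, in ribosomal RNA for most Snora genes and in spliceosomal RNAs for many Scarna genes, a class that also includes C/D box and mixed guides. Most lie within a host gene and are trimmed from its introns, and some are known to be cut further into stable short RNAs, a few of which enter the miRNA pathway. The values that follow are levels of such short fragments, not of the full-length guides, which are too long for these libraries.

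The transcripts of several members on which the results turn are shown 5′ to 3′ as GENCODE M21 gives them on GRCm38, with the most abundant fragment in capitals, because the place of the fragment differs from gene to gene.
Snora41 (chr1:63179004-63179135, plus strand, intron of Eef1b2): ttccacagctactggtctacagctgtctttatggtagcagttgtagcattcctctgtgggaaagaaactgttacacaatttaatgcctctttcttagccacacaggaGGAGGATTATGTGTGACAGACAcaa
Snora24 (chr3:123507937-123508066, minus strand, overlapping an exon of Snhg8): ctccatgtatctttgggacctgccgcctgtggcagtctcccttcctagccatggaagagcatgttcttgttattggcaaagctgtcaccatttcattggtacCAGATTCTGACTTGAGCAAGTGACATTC
Snora31 (chr14:75847905-75848034, plus strand, intron of Tpt1): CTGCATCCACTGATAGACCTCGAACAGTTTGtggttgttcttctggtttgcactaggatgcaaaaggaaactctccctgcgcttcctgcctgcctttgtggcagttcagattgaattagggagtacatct
Snora44 (chr4:132309941-132310069, plus strand, overlapping an exon of Snhg12): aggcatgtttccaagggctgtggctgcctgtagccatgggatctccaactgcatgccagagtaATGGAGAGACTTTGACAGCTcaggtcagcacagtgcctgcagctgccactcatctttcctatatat
Snora7a (chr6:115807975-115808114, minus strand, overlapping an exon of Rpl32): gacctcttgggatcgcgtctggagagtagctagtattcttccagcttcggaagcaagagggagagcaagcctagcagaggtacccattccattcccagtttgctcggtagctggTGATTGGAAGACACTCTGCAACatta
Snora36b (chr1:185242907-185243038, plus strand, intron of Rab3gap2): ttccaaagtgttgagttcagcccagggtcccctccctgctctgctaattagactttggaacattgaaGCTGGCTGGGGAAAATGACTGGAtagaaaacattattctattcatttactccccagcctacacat

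The H/ACA fragments were rare and came mostly from a few genes. Per 1000000 reads of a library (RPM), their sum ran from 351 to 440.0 in the dendritic cell libraries and from 303 to 505 in the macrophage libraries. Snora41, which sits in an intron of the elongation factor gene Eef1b2, gave 42.6% of all H/ACA reads. The 5 most abundant genes gave 78.2% and the 12 most abundant 92.8%. At the other end, 21 of the 43 genes had no read in at least 1 library, where a count of 0 allows up to 0.132 to 0.293 RPM (3 reads). That limit covers counting error only. Per 100 nt of transcript, the mean level was 132 RPM for Snora41, 30.6 for Snora62, 26.8 for Snora24, 26.2 for Snora31 and 21.5 for Snora44, against 9.11 for Snora7a and 2.66 for Scarna2.

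In the order none, LPS, oxLDL, eLDL and LDL, Snora41 had 204, 213, 189.9, 184.5 and 185.8 RPM in wild-type and 232, 208, 215, 208 and 207 RPM in knockout dendritic cells. The same order in macrophages gave 94.96, 160.2, 131, 118 and 144.5 RPM in wild-type and 121, 168.8, 197, 152 and 153 RPM in knockout cells. All macrophage libraries but the knockout library with oxLDL lay below every dendritic cell library. Snora62, from an intron of Rpsa, a gene for a small ribosomal subunit protein, ran from 16.6 to 37.3 RPM (median 27.6) in dendritic cells and from 30.1 to 92.4 RPM (median 63.7) in macrophages. For Snora62 the ranges overlapped only through the wild-type macrophage library with LDL. Snora31 ran from 11.0 to 77.4 RPM in dendritic cells and from 8.40 to 96.6 RPM in macrophages, with ranges that overlapped over most of their length.

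**Figure D1:**
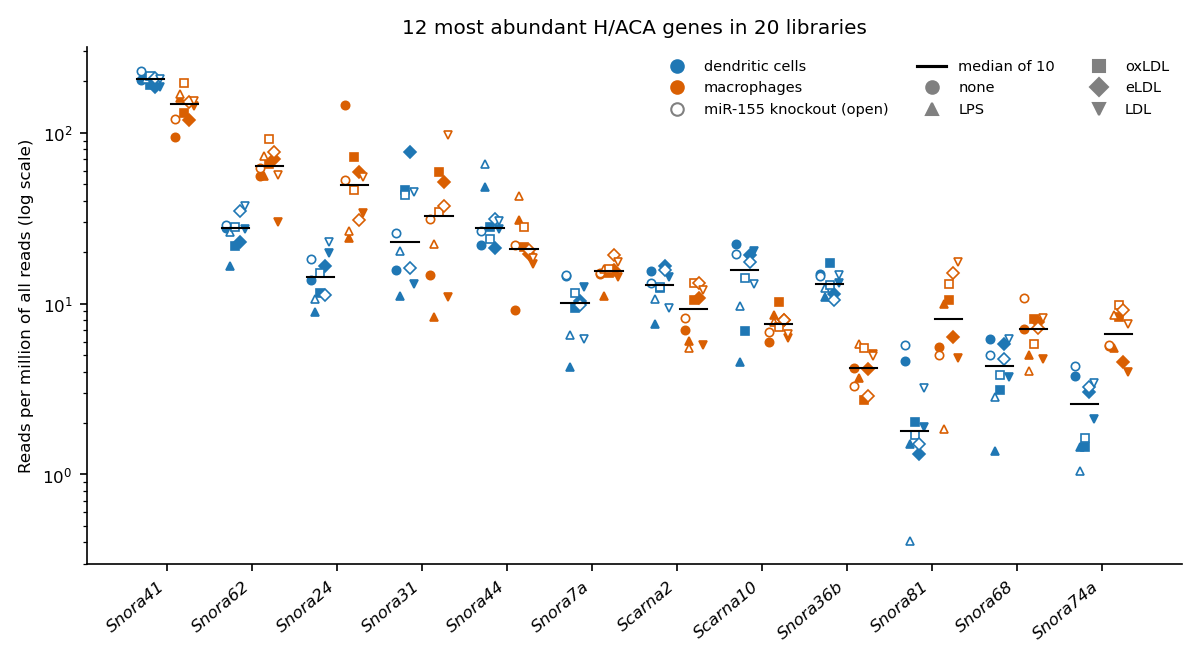
RPM of all reads (log scale) of the 12 most abundant H/ACA genes in each of the 20 libraries. Points are single libraries, colour marks the cell type, the symbol marks the stimulus, open symbols are knockout and bars are medians of 10 libraries. Snora41 stands highest with medians of 208 RPM in dendritic cells and 148 RPM in macrophages, and the ranges of Snora24 and Snora36b do not overlap between the cell types.

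Most fragments came from the ends of the RNA, and each abundant gene had its own place. Of all H/ACA reads, 58.5% ended within 6 nt of the annotated 3′ end and 22.1% started within 3 nt of the 5′ end. Much of the 3′ share was Snora41: without it, the other H/ACA genes had 28.2% of their reads at the 3′ end and 38.5% at the 5′ end. Without Snora62 as well, whose reads lie at the 5′ end, the shares were 35.3% at the 3′ end and 23.1% at the 5′ end. The C/D box RNAs (Snord genes) of the same libraries had 26.8% at the 3′ end and 67.0% at the 5′ end of 1831714 reads. In 21 of the 43 genes the most abundant tag ended within 6 nt of the 3′ end, and in 8 it started within 3 nt of the 5′ end. A hinge box could be placed in 22 genes, as an ANANNA with at least 5 of its 6 bases unpaired in the predicted fold. In 16 of these 22 genes the largest share of reads came from the 3′ arm of the second hairpin, with its tail. In 3 it came from the 5′ arm of that hairpin, and in 3 from the first hairpin. The largest share was not always a majority, as for Snora68 with 47.6% in the 3′ arm of the second hairpin. That 3′ arm held 79.1% of the reads of the 22 genes, or 48.9% without Snora41, where the 5′ arm of the first hairpin, mostly Snora62, held 46.8%.

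Snora41 was cut at a nearly fixed position. Its reads started at base 108 of 132 in 97.0% of cases, and the most abundant tags ended at base 129, the last base of the ACA box (23767 reads), or 1 base before it (23431 reads). Both tags appear in the sequence above as the capitals, with or without their last A. Snora7a, hosted by the ribosomal protein gene Rpl32, used the same region, with a main tag of 22 nt that ended at base 136 of 140 and 86.0% of its reads at the 3′ end. Of its reads, 79.3% also lie in another annotated small RNA gene with the same sequence, so its source is less certain than that of Snora41. Snora62 had 94.0% of its reads in 1 tag of 18 nt, bases 2 to 19, which is the shortest length the files hold, so shorter forms were not measurable. Snora31, from an intron of Tpt1, gave a longer fragment of 31 nt, bases 1 to 31, with 78.2% of its reads, and 84.4% started at base 1. Snora24, from the host gene Snhg8, ended at the last base of the transcript with staggered starts. Its most abundant tag, bases 103 to 130, held 24.3% of its reads.

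Snora44 and Snora36b were cut from within the RNA. In Snora44, 88.7% of the reads started at base 64, directly after an AGAGTA that has the ANANNA pattern, and ended at bases 83 to 85. No hinge box could be placed in Snora44 by the rule above. In Snora41 too an ANANNA ended just before the main tag, away from its placed hinge box at base 61. In Snora36b, 97.7% started at base 68. The longer transcripts were more scattered: Scarna10 (325 nt), which guides modification of U5 snRNA, had 20.7% of its reads in bases 189 to 208. Scarna2 (414 nt), a C/D-type guide for U2 snRNA, had 26.9% in bases 22 to 43.

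**Figure D2:**
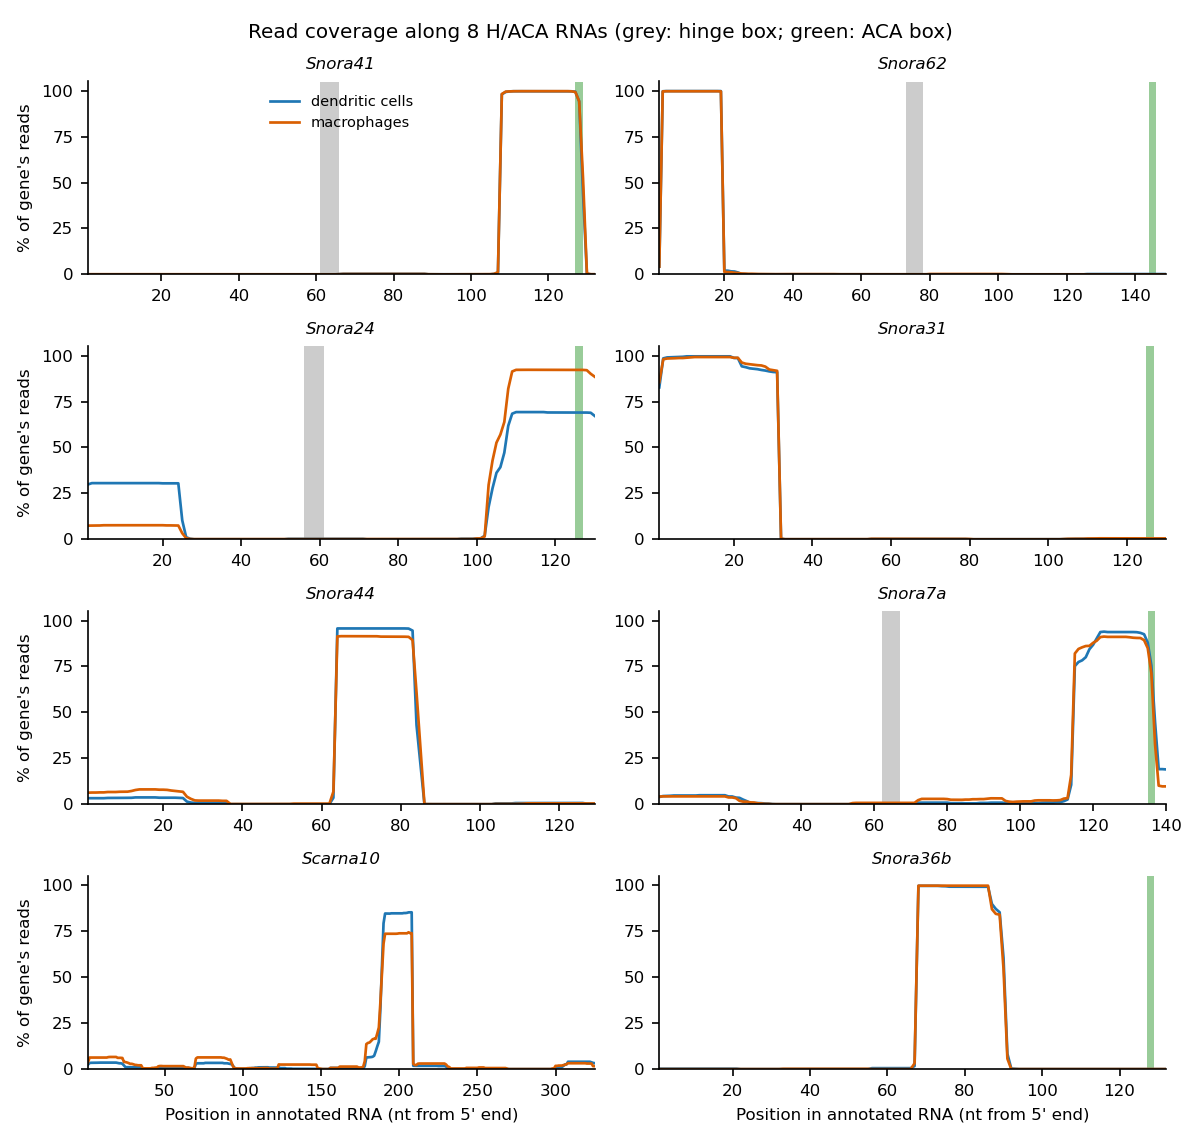
Share of each gene's reads (percent) that cover each position of the annotated RNA, in nt from the 5′ end, for 8 H/ACA genes, pooled over 10 libraries per cell type. Grey bands mark the hinge box where one was placed and green bands the ACA box. Snora41 and Snora7a are covered at the 3′ end, Snora62 and Snora31 at the 5′ end, and Snora44, Scarna10 and Snora36b within the RNA, while Snora24 shows both ends.

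The median length of the H/ACA fragments was 22 nt, and 67.0% of the reads were 20 to 24 nt long, the range of most miRNAs. Without Snora41 the median stayed at 22 nt, but the share of 20 to 24 nt was 43.1%. C/D box RNAs had 20.5% in that range and a median of 27 nt. The share of 20 to 24 nt ran from 65.5% to 86.4% in dendritic cells and from 50.6% to 73.5% in macrophages. The share of 18 to 19 nt was 7.64% to 12.8% in dendritic cells and 13.2% to 22.6% in macrophages. With base 20 left out of the match, which adds only reads of at least 20 nt, it was 7.44% to 12.4% in dendritic cells and 11.4% to 19.96% in macrophages, and 1 macrophage library lay within the dendritic range. Snora62 is the main source of 18 nt reads, since 94.1% of its reads have that length.

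**Figure D3:**
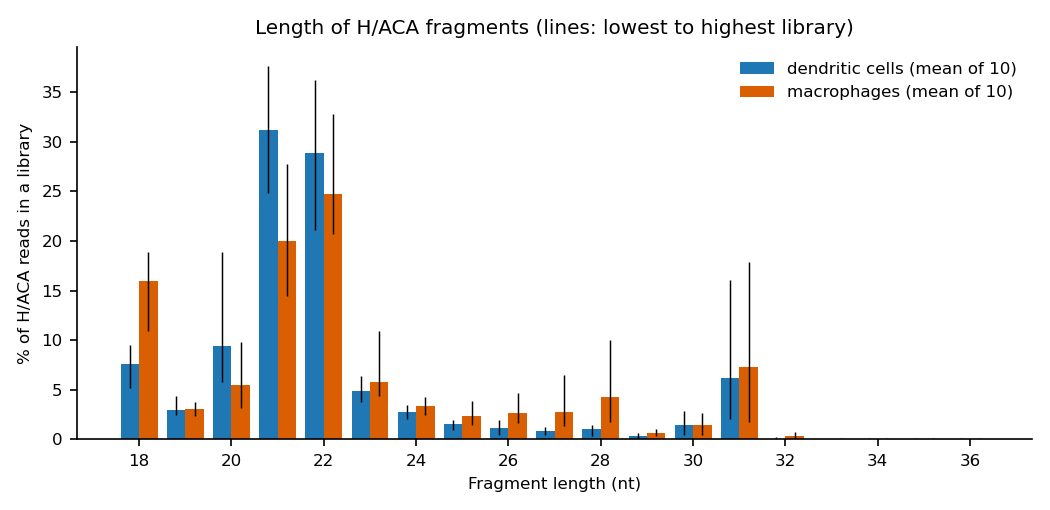
Share of H/ACA reads (percent of a library's H/ACA reads) by fragment length in nt. Bars are means of 10 libraries per cell type, and lines run from the lowest to the highest library. The peaks at 21 and 22 nt are mostly Snora41, the peak at 18 nt is mostly Snora62 and that at 31 nt is mostly Snora31.

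Libraries held 10254997 to 22796027 reads. The Mir155 hairpin gave 70.4 to 21300 RPM in the wild-type and 0.167 to 2.90 RPM in the knockout libraries, so the labels of the genotype were met. Among the myeloid markers Mir142 had 8983 to 15590 RPM and Mir223 443 to 2287 RPM, and the erythroid, liver, muscle and neural markers each reached at most 3.36 RPM. The lymphoid marker Mir150 was higher in every macrophage library (34.0 to 86.0 RPM) than in every dendritic cell library (3.34 to 13.0 RPM), and the epithelial markers were present at 1.56 to 77.6 RPM. The endothelial marker Mir126a had 1.42 to 9.92 RPM. The part of other cells in the results was not tested, and in these bulk libraries a change in cell makeup and a change of RNA per cell cannot be told apart. All 10 macrophage libraries, and no dendritic cell library, had an unread base at position 20 in 7.52% to 7.92% of the reads that reached it. Exact matching loses these reads. The match with base 20 left out takes any base there, so it adds reads with a differing base as well as those with an unread one. It counted 13.1% to 15.6% more H/ACA reads in macrophages and 1.91% to 2.64% more in dendritic cells. Unread and differing bases were not counted apart. The cell type can therefore not be told apart from the way its libraries were sequenced, and the log2 changes between cell types of the called H/ACA genes are given with both kinds of match. Other values come from the exact match unless stated.

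Between the cell types, 15 of the 35 H/ACA genes with at least 100 reads passed the test, 10 higher and 5 lower in macrophages. Over all 1048 small RNA features tested, 51.0% passed, 28.1% higher and 22.8% lower, so a share of 42.9% is not above the background. These shares come from the exact match. With base 20 left out of the match 17 H/ACA genes passed, and the share of all features was not counted for that match. The test was edgeR's quasi-likelihood F test with Benjamini-Hochberg adjustment over all features, on 10 pairs of libraries matched for genotype and stimulus. The median log2 change was 0.45 for the H/ACA genes and 0.20 for all features. Without Snora41 the H/ACA sum had a mean of 190.9 RPM in dendritic cells and 270.3 RPM in macrophages, whereas the whole sum had 396 and 415 RPM, or 405 and 473 RPM with base 20 left out of the match. In 2 genes, Snora24 and Snora36b, no macrophage library overlapped a dendritic cell library. The share of all features without such overlap was not counted, so these 2 genes cannot be set against a background.

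The highest log2 changes belonged to Snora75 (2.62 ± 0.50 standard error, adjusted p = 0.00091), hosted by the nucleolin gene Ncl, and to Snora81 (2.07 ± 0.37, adjusted p = 0.00055), hosted by Eif4a2. Both were rare in dendritic cells. Snora81 ran from 0.408 to 5.73 RPM there and from 1.85 to 17.6 RPM in macrophages, and 78.6% of its reads also lie in another annotated gene. Snora24 rose by 1.77 ± 0.20 on the log2 scale (adjusted p = 1.1e-05, edgeR), from 8.93 to 23.01 RPM in dendritic cells to 24.3 to 146 RPM in macrophages. Snora74a, known as U19, rose by 1.52 ± 0.14 (adjusted p = 2.6e-06). Snora57 (1.51 ± 0.40) and Snora62 (1.22 ± 0.10, adjusted p = 5.7e-07) were next. Of the Snora57 reads, 99.2% also lie in another annotated gene, so their source is uncertain. Snora57 was rare, at 0 to 1.33 RPM in dendritic cells and 0.513 to 2.58 RPM in macrophages. With base 20 left out of the match, the log2 changes were 2.84 for Snora75, 2.29 for Snora81, 1.97 for Snora24, 1.70 for Snora74a and 1.66 for Snora57. Snora62 did not move, at 1.22, since its 18 nt fragment has no base 20, but with tags of at least 20 nt only it no longer passed (0.95, adjusted p = 0.22), nor did Snora57 (1.19, adjusted p = 0.082). Snora64 (0.94 ± 0.21), Snora68 (0.74 ± 0.18) and Snora7a (0.69 ± 0.14) also rose, with 1.17, 0.93 and 0.87 when base 20 was left out, as did Scarna9, described with the Scarna genes. With tags of a single gene Snora7a did not pass (0.32, adjusted p = 0.21).

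Lower in macrophages were Snora36b (-1.65 ± 0.15, adjusted p = 2.1e-06), Scarna10 (-0.86 ± 0.17, adjusted p = 0.0012), Snora41 (-0.53 ± 0.06, adjusted p = 1.9e-05), Scarna2 (-0.51 ± 0.13, adjusted p = 0.0068) and Snora44 (-0.50 ± 0.12, adjusted p = 0.0052), each by edgeR. These declines were smaller with base 20 left out: -1.43 for Snora36b, -0.71 for Scarna10, -0.34 for Snora41 and -0.36 for Scarna2 still passed, and Snora44 did not (-0.28, adjusted p = 0.065). The order of the levels also overlapped more, since Snora41 then ran from 191 to 240.2 RPM in dendritic cells and from 111 to 231 RPM in macrophages. Snora24 and Snora36b kept ranges without overlap under that match, and Snora74a joined them (1.05 to 4.37 against 4.78 to 11.1 RPM).

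**Figure D4:**
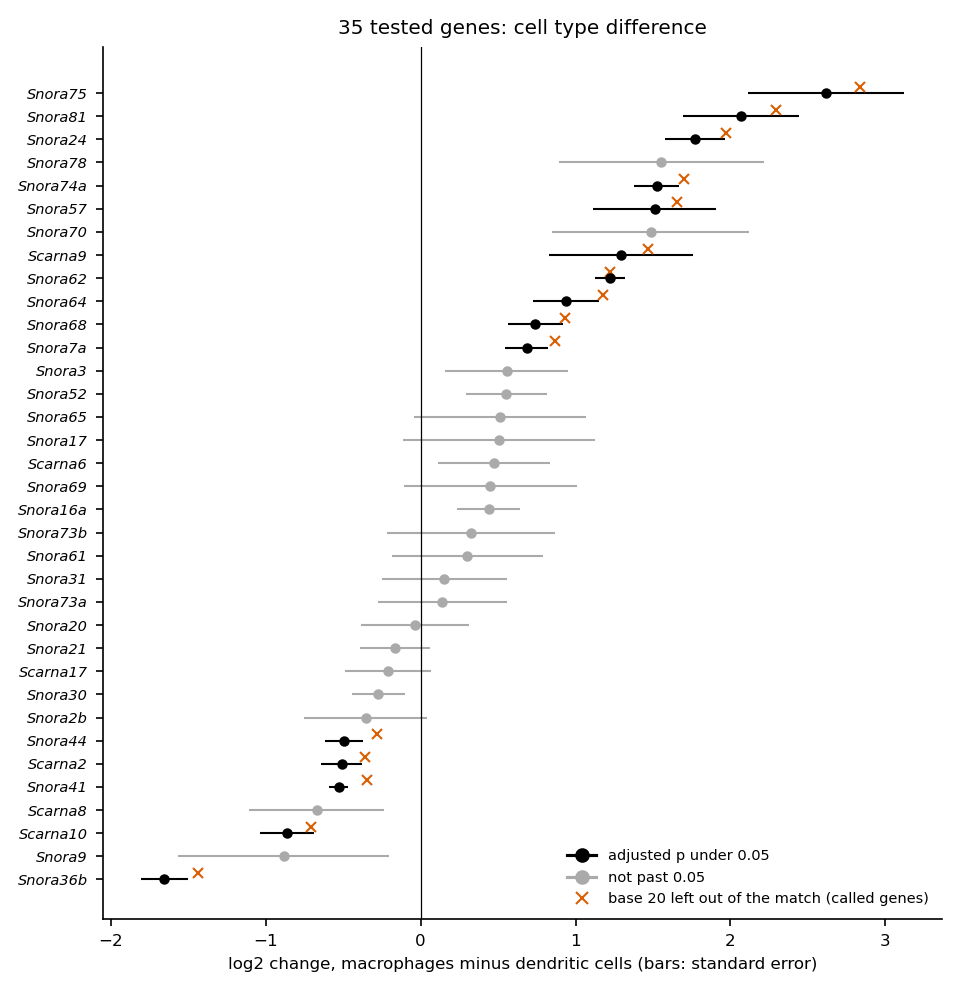
Log2 change of macrophages minus dendritic cells with its standard error for the 35 tested H/ACA genes, in order of size. Black points passed the adjusted threshold, grey points did not, and crosses give the value of the called genes with base 20 left out of the match. Snora75 lies highest at 2.62 and Snora36b lowest at -1.65, and every cross lies on its point or to the right of it.

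The 2 genes without overlap were each followed to the fragment. Snora24 gave fragments from both ends, with 88.0% of its reads at the 3′ end. The 3′ values therefore largely repeat those of the whole gene, for which Snora24 was chosen. Its 5′ fragment ran from 2.70 to 7.32 RPM (median 4.25) in dendritic cells and from 2.21 to 5.79 RPM (median 4.02) in macrophages. Its 3′ fragment ran from 4.21 to 18.5 RPM (median 11.1) in dendritic cells and from 21.3 to 143 RPM (median 43.9) in macrophages. The ranges thus overlapped for the 5′ fragment and not for the 3′ fragment, also with base 20 left out of the match (3′ fragment 4.21 to 18.8 against 24.5 to 167.7 RPM), and the 5′ share of Snora24 reads had a median of 31.9% in dendritic cells and 9.37% in macrophages.

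Snora36b contains the Mir664 hairpin. Tags inside that hairpin, 32393 reads, were not counted, and 99.4% of the 2477 reads that were counted share at least 15 nt with it, because they start 1 base before its annotated end. The RefSeq (GRCm38.p6) mature sequence, with its seed in capitals, shows the shared stretch.
mmu-miR-664-5p: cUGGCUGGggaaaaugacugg
The most abundant Snora36b tag, shown above, holds this sequence from its base 2 on. Counted on its own, the Mir664 hairpin was also lower in macrophages, by -1.72 ± 0.08 on the log2 scale (adjusted p = 3.5e-09, edgeR), beside -1.65 ± 0.15 for Snora36b. In all, 110828 reads of Snora and Scarna transcripts lay in miRNA hairpins and were left out, including 28622 in Mir1843b within Scarna3a and 24989 in Mir1843a within Scarna3b. Scarna3a itself kept 33 reads.

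LPS changed few H/ACA genes, and Snora44 was the only one that rose in both cell types. In dendritic cells, 5 of 35 genes passed, 1 higher and 4 lower, against 12.1% of all features (3.05% higher and 9.06% lower). In macrophages, 3 of 35 passed, 2 higher and 1 lower, against 5.15% of all features (3.72% higher and 1.43% lower). With TMM scaling 0 were higher and 1 lower (Snora24) in macrophages. Each effect rests on 2 pairs of libraries, and the median of all features was itself -0.42 on the log2 scale in dendritic cells and 0.09 in macrophages, beside -0.66 and 0.18 for the H/ACA genes.

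Snora44, from the host gene Snhg12, had 21.9 RPM without stimulus and 48.0 RPM with LPS in wild-type dendritic cells, and 26.7 and 65.8 RPM in knockout dendritic cells. In macrophages it had 9.19 and 30.9 RPM in wild-type and 22.2 and 42.8 RPM in knockout cells. In each of the 4 cultures the LPS library was the highest of the 5. The log2 change was 1.22 ± 0.28 in dendritic cells (adjusted p = 0.018) and 1.28 ± 0.28 in macrophages (adjusted p = 0.021, edgeR), and the difference between the effects, 0.06 ± 0.39, did not pass (adjusted p = 0.93). The dendritic call was lost without any 1 of the 4 unstimulated and LPS libraries (1.08 to 1.35, adjusted p = 0.077 to 0.13). The macrophage call was lost with TMM scaling (1.17, adjusted p = 0.071) and without the wild-type unstimulated (0.85, adjusted p = 0.23), the wild-type LPS (1.29, adjusted p = 0.07) or the knockout LPS library (1.27, adjusted p = 0.099). Snora16a and Snora61, which share the host Snhg12 with Snora44, did not pass in either cell type.

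The LPS libraries differed from the others in the shortest main form of Snora44. The tag of 20 nt that ends at base 83, shown in capitals above, had 37.1 and 45.4 RPM in wild-type and knockout dendritic cells with LPS, against 4.76 to 13.6 RPM in the 8 other dendritic cell libraries. In macrophages it had 16.5 and 17.4 RPM with LPS against 1.71 to 5.79 RPM in the 8 others. The form that ends 2 bases later had 3.60 and 6.24 RPM with LPS in dendritic cells, against 4.44 to 10.3 RPM in the others. In macrophages that form had 3.67 and 11.2 RPM with LPS, against 2.74 to 9.59 RPM. Of the reads that start at base 64, those ending at base 83 made up 81.9% and 73.1% in the dendritic cell libraries with LPS (23.5% to 47.3% in the others), and 57.2% and 42.8% in the macrophage libraries with LPS (13.4% to 33.5% in the others). The ranges did not overlap in either cell type. This split by length was made after the values were seen and was not put to a test.

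**Figure D5:**
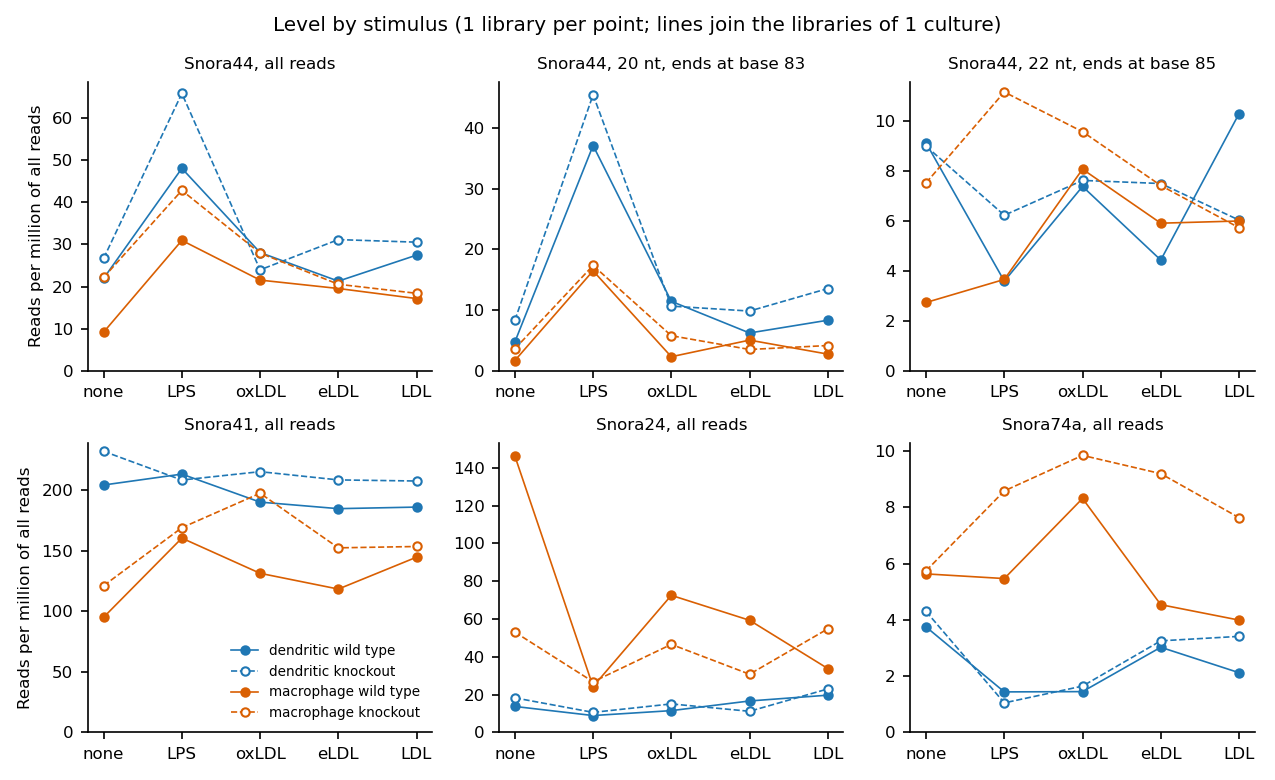
RPM of all reads by stimulus for Snora44 (all reads, the 20 nt form ending at base 83 and the 22 nt form ending at base 85), Snora41, Snora24 and Snora74a. Each point is 1 library, and lines only join the libraries of 1 culture. The 20 nt form of Snora44 reaches 37.1 and 45.4 RPM in dendritic cells with LPS, and the form ending at base 85 stays at or below 11.2 RPM in all libraries.

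In dendritic cells 4 H/ACA genes fell with LPS. Snora74a (-1.69 ± 0.34, adjusted p = 0.011), Scarna10 (-1.59 ± 0.39, adjusted p = 0.022), Snora68 (-1.43 ± 0.42, adjusted p = 0.046) and Snora7a (-1.42 ± 0.32, adjusted p = 0.017) were the 4, by edgeR's test. Scarna10 went from 22.3 to 4.54 RPM in wild-type and from 19.5 to 9.74 RPM in knockout dendritic cells, and Snora7a from 14.5 to 4.25 and from 14.7 to 6.59 RPM. The Snora74a call was lost without the wild-type unstimulated (adjusted p = 0.07) or the knockout LPS library (adjusted p = 0.088), and with tags of at least 20 nt (adjusted p = 0.06). The calls of Snora7a and Scarna10 were lost without the wild-type unstimulated, the wild-type LPS or the knockout unstimulated library (adjusted p = 0.083 to 0.19 for Snora7a and 0.054 to 0.25 for Scarna10). The Snora68 call was lost without any of 10 libraries (all of the dendritic cells but the 2 with eLDL, and the 2 unstimulated macrophage libraries), with adjusted p = 0.053 to 0.32, and with TMM scaling (adjusted p = 0.08), DESeq2 (0.12), a minimum of 20 reads (0.075) or tags of at least 20 nt (0.074). With shared stimulus effects the calls of Snora74a (adjusted p = 0.33), Scarna10 (0.38) and Snora7a (0.095) were lost.

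In macrophages Snora24 fell and Snora41 rose with LPS. Snora24 went from 146 to 24.3 RPM in wild-type and from 53.1 to 26.8 RPM in knockout macrophages, a log2 change of -1.85 ± 0.44 (adjusted p = 0.031, edgeR). The wild-type unstimulated library was the highest of all 20, and without it the change was -1.14 (adjusted p = 0.33). The call was also lost without the wild-type LPS (-1.48, adjusted p = 0.21) or the knockout LPS library (-2.22, adjusted p = 0.063), and with a minimum of 20 reads (-1.85, adjusted p = 0.056). In dendritic cells Snora24 went from 13.7 to 8.93 and from 18.3 to 10.6 RPM, and the difference between the effects did not pass (-1.14 ± 0.61, adjusted p = 0.31), though it did by DESeq2 (-1.69, adjusted p = 0.031). Snora41 rose by 0.62 ± 0.14 in macrophages (adjusted p = 0.023, edgeR), from the values given above. It did not pass with TMM scaling (0.51, adjusted p = 0.13), by DESeq2 (0.55, adjusted p = 0.074), with stimulus effects shared by the cell types (0.27, adjusted p = 0.27), or without the wild-type unstimulated (0.59, adjusted p = 0.22), the wild-type LPS (0.48, adjusted p = 0.17) or the knockout unstimulated library (0.66, adjusted p = 0.12).

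The LPS effect differed between the cell types for Snora74a alone, by 1.94 ± 0.46 (adjusted p = 0.037, edgeR), 1 of 35 genes against 3.91% of all features (3.24% higher and 0.668% lower). In dendritic cells Snora74a went from 3.75 to 1.44 RPM in wild-type and from 4.30 to 1.05 RPM in knockout cells. In macrophages it went from 5.63 to 5.47 RPM in wild-type and from 5.74 to 8.58 RPM in knockout cells. The call was lost without any 1 of 18 of the 20 libraries, all but the 2 of macrophages with eLDL (1.58 to 2.33, adjusted p = 0.051 to 0.15). It was also lost by DESeq2 (1.39, adjusted p = 0.099), with tags of at least 20 nt (1.21, adjusted p = 0.3), with a minimum of 20 reads (adjusted p = 0.061) and with tags of a single gene (adjusted p = 0.059).

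The lipoprotein comparison uses the same unstimulated libraries as the LPS comparison. The lipoproteins, taken as the mean of oxLDL, eLDL and LDL against no stimulus, changed no H/ACA gene past the edgeR threshold in either cell type. At an unadjusted p under 0.05 there were 9 of 35 genes in dendritic cells and 4 of 35 in macrophages, against 122 and 137 of all 1048 features. DESeq2 called 0 and 1 (Snora24, lower in macrophages). Of all features 0.00% passed the edgeR threshold in dendritic cells and 3.72% in macrophages (2.86% higher and 0.859% lower). The difference between the cell types passed for no H/ACA gene either, against 1.72% of all features (1.43% higher and 0.286% lower). At an unadjusted p under 0.05 it had 9 of 35 genes, against 160 of 1048 features, and DESeq2 called 0 genes. Snora31 had its highest values with lipoproteins. In the order none, oxLDL, eLDL and LDL it had 15.7, 46.4, 77.4 and 13.0 RPM in wild-type and 25.8, 43.5, 16.3 and 44.95 RPM in knockout dendritic cells. In macrophages it had 14.7, 58.9, 51.3 and 10.9 RPM in wild-type and 31.2, 34.3, 37.3 and 96.6 RPM in knockout cells. No lipoprotein stood apart in all 4 cultures, since LDL was lowest of these 4 in both wild-type cultures and highest in both knockout cultures. The log2 changes of Snora31, 0.96 ± 0.79 in dendritic cells and 1.15 ± 0.79 in macrophages, did not pass (adjusted p = 0.71 and 0.59, edgeR).

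The miR-155 knockout changed no H/ACA gene past the edgeR threshold. In dendritic cells 1 of 35 genes had an unadjusted p under 0.05, against 118 of 1048 features. Of all features 1.15% passed by edgeR (0.668% higher and 0.477% lower). DESeq2 called 1 H/ACA gene (Snora62, higher), and the DESeq2 share of all features was not counted. In macrophages 4 of 35 genes had an unadjusted p under 0.05, against 233 of 1048 features, and DESeq2 called 0 genes. Of all features 6.58% passed by edgeR (4.20% higher and 2.39% lower). For the difference between the cell types, 1 of 35 genes had an unadjusted p under 0.05, against 149 of 1048 features, and DESeq2 called 0 genes. Of all features 3.05% passed by edgeR (1.62% higher and 1.43% lower). Snora62 was higher in the knockout library of every matched pair, 10 of 10, a count not made for all features. Its log2 change was 0.42 ± 0.14 in dendritic cells (adjusted p = 0.26) and 0.42 ± 0.13 in macrophages (adjusted p = 0.11), neither past the edgeR threshold. The median of all features was -0.03 in dendritic cells and 0.21 in macrophages, beside 0.09 and 0.29 for the H/ACA genes.

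Grouped by host gene, 11 of the 43 genes lie in ribosomal protein genes and held 18.5% of the reads, 9 lie in Snhg genes with 17.4%, 18 in other genes with 60.7%, mostly Snora41, and 5 have no annotated host. Of the 10 tested genes in ribosomal protein genes, 4 were higher and none lower in macrophages than in dendritic cells, with a median log2 change of 0.62. Of the 8 tested genes in Snhg genes, 1 was higher and 1 lower (median 0.31), and of 13 in other genes, 4 were higher and 3 lower (median -0.04), against 28.1% and 22.8% of all features and their median of 0.20.

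Of the 8 Scarna genes, 6 were tested. In macrophages Scarna10 and Scarna2 were lower, as given above, and Scarna9 was higher (1.29 ± 0.47, adjusted p = 0.035, edgeR). Scarna9 was at 0 to 1.84 RPM in dendritic cells and 0.614 to 3.36 RPM in macrophages, and its change was 1.47 with base 20 left out of the match (adjusted p = 0.019). The call was lost with tags of at least 20 nt (0.98, adjusted p = 0.17), with a minimum of 20 reads (adjusted p = 0.055) and without any 1 of 11 libraries (adjusted p = 0.053 to 0.096): in dendritic cells wild-type none, LPS and LDL and knockout oxLDL and LDL, and in macrophages wild-type none, LPS, oxLDL and eLDL and knockout LPS and LDL. Scarna6 (0.47 ± 0.36), Scarna17 (-0.21 ± 0.28) and Scarna8 (-0.67 ± 0.43) did not pass. Scarna13 and Scarna3a, at 97 and 33 reads, were too rare to test. Scarna13 had 66.0% of its reads in an 18 nt tag at its 5′ end. Snora73a and Snora73b, the U17 RNAs that act in ribosomal RNA processing, had 203 and 189 reads in spite of their length of 205 nt and passed in no comparison.

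Other RNAs of the H/ACA pathway were rare too. Terc, the telomerase RNA, which ends in an H/ACA domain, ran from 16.9 to 39.4 RPM in dendritic cells and from 12.9 to 33.8 RPM in macrophages (-0.29 ± 0.14 on the log2 scale, adjusted p = 0.092, edgeR). Tags from the messenger RNAs of the H/ACA protein genes were near the limit of detection. Nop10 had 282 reads, Nhp2 182, the dyskerin gene Dkc1 110 and Gar1 100 over all libraries, and the assembly and localisation factors Shq1, Naf1 and Wrap53 had 384, 94 and 52. None of the 7 exceeded 4.04 RPM in a library.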

How the data were processed

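Small RNA was sequenced in 20 libraries of cells grown from mouse marrow, whose cell type, genotype and stimulus were taken from their labels. The labels' protocols name Trizol for the extraction and a TruSeq kit for the libraries. CASAVA 1.8.2 is named in the submitters' processing notes without its role, and the tool that trimmed adapters is not given in the sources used here. For every library the authors deposited a list of distinct tags with the read count of each, and no alignment or gene name. Depth was 10254997 to 22796027 reads.

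Tags of 18 to 45 nt were matched exactly, in sense, to the small RNA transcripts of GENCODE M21 (GRCm38) with Python 3.11.15. A tag in a miRNA hairpin counted only there, a tag in a Snora or Scarna transcript and no hairpin counted there, and tags of several genes were divided equally. Levels are reads per 1000000 reads of a file (RPM). Hinge boxes were placed with folds from RNAfold 2.7.2. The 1048 features with at least 100 reads were fitted in 1 model with edgeR 4.0.16 (R 4.3.3, quasi-likelihood F test), with culture and stimulus within cell type as terms, all file reads as library size and 8 residual degrees of freedom, which come from the departure of the 2 genotypes from parallel responses. Features with a Benjamini-Hochberg adjusted p under 0.05 were called. The script was tested on simulated data. Alternatives were TMM scaling, DESeq2 1.42.0, a minimum of 20 reads, tags of at least 20 nt, tags of a single gene, stimulus effects shared by the cell types, leaving out each library, and, added after seeing the data, a match without base 20.

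The genes named are the 12 most abundant members, up to 5 called members per direction and test, every Scarna gene, and examples from fixed lists (hosts, pathway genes). The members and lists were chosen with earlier results of these data known. No sequence is shown for Snora74a or Scarna17.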

Additional observations from a re-analysis of the deposited data

Results flagged for a closer look

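The effect of LPS on Snora74a differed between the cell types by 1.94 on the log2 scale in a test of the difference itself (edgeR, adjusted p = 0.037). It fell in both dendritic cell cultures, and its macrophage values are 5.63 and 5.47 RPM in wild-type and 5.74 and 8.58 RPM in knockout cells without and with LPS. The call rests on 2 pairs of libraries per cell type. As given above, it was lost without any 1 of 18 of the 20 libraries, by DESeq2 (adjusted p = 0.099) and under other settings.

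A second signal lies in tags that the exact match does not take. Snora41 had 27886 reads whose last base is a T that the annotated transcript does not have, beside 51446 exact reads. Most of them, 26803 reads, are 1 tag, shown here with that base in capitals beside the exact tag that ends at the ACA box.
Snora41, last base T: ggaggattatgtgtgacagacT
Snora41, exact: ggaggattatgtgtgacagacA
The tag with T had 88.5 to 132 RPM in dendritic cells and 50.3 to 107 RPM in macrophages, and the exact tag 64.03 to 107 and 47.4 to 103 RPM. The ratio of the former to the latter ran from 0.832 to 1.69 in dendritic cells and from 0.863 to 1.31 in macrophages. No GENCODE transcript holds the tag with T. Only 460 Snora41 reads ended with another A, 584 with another C and 69 with another G. Snora7a had 3435 reads of the same kind beside 3908 exact reads. Apart from these, Snora44 had 281 and Snora36b 74, and Snora62, Snora68 and Snora16a had 0. The search left out tags of 20 nt or less and bases past the annotated 3′ end. A T after the 18 nt tag of Snora62, or after the last base of Snora16a, could therefore not be found. The source of the T was not tested.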

How the results depend on the processing

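Of 24 called values, 14 kept their call without any 1 library, 11 under each of the 7 other settings, and 10 throughout; all of these 10 are cell type differences. Leaving out 1 library gave 0 to 6 LPS calls in dendritic cells (0 without the wild-type unstimulated library, 1 without the wild-type LPS or the knockout unstimulated, 2 without the knockout LPS library), 0 to 4 in macrophages (0 without the wild-type unstimulated or wild-type LPS library, 1 without the knockout LPS library) and 0 to 1 for the difference between them, 0 to 2 for lipoproteins in macrophages and 0 to 1 for the knockout in macrophages. LPS calls in dendritic cells fell from 5 to 3 with tags of at least 20 nt or with shared stimulus effects, and in macrophages from 3 to 1 (Snora24, lower) with TMM scaling. With a minimum of 20 reads, tags of at least 20 nt or tags of a single gene, 0 genes differed in their LPS effect. DESeq2 called 1 gene for lipoproteins in macrophages and 1 for the knockout in dendritic cells, and the match without base 20 called 1 (Snora41) for lipoproteins in macrophages. The difference of the Snora44 LPS effects changed sign with TMM (-0.29), DESeq2 (-0.50), and without the wild-type LPS dendritic (-0.06) or unstimulated macrophage library (-0.37), and ranged up to 0.641 without the knockout unstimulated macrophage library. The H/ACA mean fell from 396 to 354 RPM in dendritic cells and from 415 to 335 RPM in macrophages with tags of at least 20 nt, which leaves out Snora62's fragment. The causes were otherwise not tested.

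TMM moved the median of all features with LPS from -0.42 to -0.18 in dendritic cells and from 0.09 to -0.01 in macrophages, and that of the knockout in macrophages from 0.21 to -0.01. Transcripts extended by flanking genome were not run, since no genome was used here. The labels carry no replicate numbers, so no block by replicate was fitted; libraries were matched through the culture and stimulus terms.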
